A study of Mus musculus with 110 samples.

Results

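Livers of mice on a methionine-restricted diet (MetR) were compared with livers of mice on the control diet, all of them killed after 24 h at 4 °C. The comparison took the 14 liver libraries of the groups MetR_CE (7 mice) and Ctrl_CE (7 mice) out of 110 libraries in the series. It covered each of the 22143 genes whose counts, added up over the 28 liver libraries, reached 10 or more. All mice were male C57BL/6N, were housed singly, were 16 weeks old at the end and ate diets without cysteine, so that methionine was the remaining sulfur amino acid of the feed. The control diet held 0.86% methionine per the labels and the MetR diet 0.12%. Both diets were eaten for 7 days at 22 °C, and the CE groups then spent an additional day that included the 24 h of cold. The same diet contrast without cold, MetR_RT against Ctrl_RT with 7 mice each, shares no library with the cold groups and is used to test where the effect of the diet differed with temperature. Whole liver was sequenced, so values are means over all cell types of the organ, and fewer cells of a type and less RNA per cell cannot be told apart.

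Methionine gives the methyl donor S-adenosylmethionine through the methionine cycle, and its sulfur passes to cysteine and glutathione through transsulfuration. Shortage of an amino acid is sensed by the kinase GCN2, which slows translation and lets the transcription factor ATF4 raise genes for amino acid synthesis, uptake and tRNA charging, a programme called the integrated stress response. In liver, shortage of sulfur amino acids is also known for activation of NRF2, the factor behind many glutathione and detoxification genes, and for the hormone FGF21. Cold, in turn, draws on the liver for fuel and lipoproteins, which makes the question whether the diet still alters the liver of a cold-exposed mouse.

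Total counts ran from 11943605 to 22169078 in Ctrl_CE (median 17153587) and from 12113437 to 17950183 in MetR_CE (median 12654213). The median correlation of a library with the others of its group, on the log2 scale of CPM (counts scaled to a common library total), was 0.986 to 0.990 in MetR_CE, but went down to 0.954 in Ctrl_CE, where replicate 4 stood apart and replicate 2 followed with 0.981. Among Ctrl_CE libraries, both of these held high levels of inflammatory genes, whereas replicate 1 held the lowest. Ctrl_RT libraries reached such levels too in some acute phase genes. Hp had 7110 to 16000 CPM in Ctrl_RT and 15700 CPM in Ctrl_CE replicate 4, and Orm1 had 917 to 2820 CPM and 2690 CPM. C3 (10100 to 17000 CPM in Ctrl_RT) and Marco (3.33 to 27.3 CPM) did not reach replicate 4, which held 28500 and 249 CPM. The acute phase transcript Saa1 ranged from 10.2 CPM in Ctrl_CE replicate 1 to 11000 CPM in replicate 4. Results on inflammation are therefore also given without Ctrl_CE replicate 4 and without replicates 2 and 4, a choice made after seeing the data. Hepatocyte transcripts dominated each library: the 10 hepatocyte markers summed to 65427 to 85366 CPM in Ctrl_CE and 56423 to 65090 CPM in MetR_CE. Alb, which encodes albumin, ran at 42600 to 62600 CPM (median 46400) in Ctrl_CE and 32700 to 40400 CPM (median 36600) in MetR_CE.

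In the cold, 1165 genes were called, 258 higher and 907 lower in MetR_CE, at an adjusted p under 0.05 (edgeR's quasi-likelihood test with Benjamini-Hochberg adjustment over all 22143 genes) and a change of at least 1.5-fold. This is 5.26% of the genes tested, 1.17% higher and 4.1% lower, so that 77.9% of the calls were lower. The median log2 fold change (log2FC) was 0.91 among the higher calls and -1.10 among the lower ones, against -0.01 over all genes. Without Ctrl_CE replicate 4 the test called 1.22% of genes higher and 3.71% lower, and without replicates 2 and 4 it called 1.13% higher and 2.74% lower. Of the calls made with all libraries, 184 higher and 517 lower ones remained without replicates 2 and 4. Levels below are normalised CPM, given as the lowest to the highest library with the median in parentheses, and each log2FC is MetR_CE over Ctrl_CE with its standard error (n = 7 per group).

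Among the largest increases was Cox6a2. Cox6a2, the heart and muscle form of a cytochrome c oxidase subunit (chr7:128205435-128206366 in GRCm38.p6, in a span it shares with Itgad), was at 1.15 to 3.39 CPM (median 3.09) in MetR_CE, against 0 to 0.119 CPM (median 0.078) in Ctrl_CE (log2FC 5.13 ± 0.40, adjusted p = 1.73e-09). Krt23, an epithelial keratin that liver raises under stress, had 0.455 to 5.48 CPM (median 0.559) in Ctrl_CE and 5.07 to 16.7 CPM (median 8.78) in MetR_CE (log2FC 2.82 ± 0.52, adjusted p = 0.00046), and its log2FC was 3.88 without Ctrl_CE replicate 3, which alone reached 5.48 CPM. Vmn2r3, a gene of the vomeronasal receptor family, had 0 to 0.373 CPM (median 0) in Ctrl_CE and 0.23 to 4.91 CPM (median 1.67) in MetR_CE (log2FC 5.01 ± 1.16, adjusted p = 0.00369), and 5.93 without Ctrl_CE replicate 4. The MetR_CE libraries of Cox6a2 all lay above those of Ctrl_CE, whereas the groups touched in Krt23 and Vmn2r3. Among the largest decreases were acute phase and phagocyte genes, described further below, and Chrna4, a subunit of nicotinic acetylcholine receptors. Chrna4 had 3.91 to 44.4 CPM (median 19.3) in Ctrl_CE and 0.446 to 3.62 CPM (median 0.902) in MetR_CE, without overlap (log2FC -4.12 ± 0.75, adjusted p = 0.000342).

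Part of the integrated stress response rose. Of 30 members tested, 8 were higher and 0 lower (median log2FC 0.30 against -0.01 over all genes), and 9 were higher without Ctrl_CE replicates 2 and 4. Asns, which makes asparagine, had 18.5 to 42 CPM (median 28.3) in Ctrl_CE and 59.8 to 125 CPM (median 86.8) in MetR_CE (log2FC 1.61 ± 0.20, adjusted p = 2.77e-06). Trib3, a pseudokinase that ATF4 induces and that feeds back on it, had 6.61 to 16.1 CPM (median 8.37) in Ctrl_CE and 17.8 to 42.6 CPM (median 26.7) in MetR_CE (log2FC 1.57 ± 0.26, adjusted p = 0.000147). In both genes the lowest MetR_CE library exceeded the highest Ctrl_CE library. Vldlr, the receptor for very low density lipoprotein and a known ATF4 target, had 2.09 to 3.43 CPM (median 3.03) in Ctrl_CE and 6.09 to 10.6 CPM (median 8.48) in MetR_CE (log2FC 1.58 ± 0.18, adjusted p = 7.12e-07). Gars, the glycyl-tRNA synthetase, had 57.8 to 70.9 CPM (median 62.2) in Ctrl_CE and 92.7 to 122 CPM (median 113) in MetR_CE (log2FC 0.78 ± 0.09, adjusted p = 1.29e-06), again without overlap. Nupr1, a small stress-induced chromatin protein, was at 1.6 to 3.54 CPM (median 2.57) in Ctrl_CE and 3.53 to 7.38 CPM (median 5.93) in MetR_CE (log2FC 1.15 ± 0.19, adjusted p = 0.000116), with groups that touched at 3.54 and 3.53 CPM. Atf5, a transcription factor relative of ATF4, was at 621 to 838 CPM (median 754) in Ctrl_CE and 1030 to 1520 CPM (median 1290) in MetR_CE (log2FC 0.81 ± 0.13, adjusted p = 0.000113). Soat2, which esterifies cholesterol, had 31.9 to 48.1 CPM (median 40.9) in Ctrl_CE and 53.2 to 74.4 CPM (median 66.6) in MetR_CE (log2FC 0.69 ± 0.11, adjusted p = 9.6e-05). Slc7a11, the cystine importer, was nearly silent in Ctrl_CE, with 1 count over 7 libraries against 73 in MetR_CE. This is a ratio of 86 at equal depth, with a 95% interval of 15 to 3440 that covers counting error only. Fgf21, the hepatokine of amino acid shortage, varied widely with 1.25 to 18.8 CPM (median 6.46) in Ctrl_CE and 3.36 to 61.1 CPM (median 10.6) in MetR_CE and was not called (log2FC 1.19 ± 0.67, adjusted p = 0.278). It was higher in MetR_RT than in Ctrl_RT (log2FC 3.05 ± 0.71, adjusted p = 0.00247) and the difference of both effects did not pass the test (difference -1.86 ± 0.97, adjusted p = 0.346).

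The C/EBP-ATF element, at which ATF4 binds with C/EBP partners, was searched on both strands of the 250 bases before each RefSeq start (GRCm38.p6) as TGATG followed by any base and AA. It occurred in 1134 of 32851 promoters (3.45%) and for 1056 of 27025 genes (3.91%). Of the 8 called stress response genes, 7 were in the promoter table and 5 of these held it (Vldlr, Gars, Asns, Slc7a11 and Nupr1). The list was made of known stress response genes and its uncalled members were not counted, so this share does not bear on the diet. The antioxidant response element, searched as TGAC, any 3 bases and GC, occurred for 11.5% of genes and in 1 of the 7 (Asns). Promoters of the 4 of these genes with the smallest p are shown because they hold the element. Capitals mark the element, which reads on the reverse strand in Vldlr and Gars, on the forward strand in Asns and in both ways in Slc7a11. Vldlr lies on the plus strand at chr19:27216770-27217019 (1 of its 2 listed starts) and Gars on the plus strand at chr6:55037751-55038000. Asns lies on the minus strand at chr6:7693210-7693459 and Slc7a11 on the minus strand at chr3:50443614-50443863.
Vldlr: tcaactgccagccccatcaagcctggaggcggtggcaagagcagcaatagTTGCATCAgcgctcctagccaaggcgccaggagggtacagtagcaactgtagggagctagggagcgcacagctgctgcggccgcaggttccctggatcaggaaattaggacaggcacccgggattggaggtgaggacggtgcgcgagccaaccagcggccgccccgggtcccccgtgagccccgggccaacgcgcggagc
Gars: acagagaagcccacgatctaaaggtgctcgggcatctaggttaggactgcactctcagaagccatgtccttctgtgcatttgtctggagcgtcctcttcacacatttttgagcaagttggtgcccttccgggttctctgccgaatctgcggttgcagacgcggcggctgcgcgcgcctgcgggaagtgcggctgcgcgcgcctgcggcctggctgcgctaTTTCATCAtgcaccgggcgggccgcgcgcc
Asns: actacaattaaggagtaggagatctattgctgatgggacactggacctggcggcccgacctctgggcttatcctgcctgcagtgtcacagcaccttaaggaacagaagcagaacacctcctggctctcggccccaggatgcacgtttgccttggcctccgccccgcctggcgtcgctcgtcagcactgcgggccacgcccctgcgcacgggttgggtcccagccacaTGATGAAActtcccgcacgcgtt
Slc7a11: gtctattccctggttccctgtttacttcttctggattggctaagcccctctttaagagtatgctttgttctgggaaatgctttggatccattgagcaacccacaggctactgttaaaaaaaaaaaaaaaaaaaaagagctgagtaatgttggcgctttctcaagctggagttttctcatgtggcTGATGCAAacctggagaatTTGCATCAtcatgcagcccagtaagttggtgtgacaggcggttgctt
The elements begin 200 bases before the start in Vldlr, 30 in Gars, 23 in Asns and 66 and 47 in Slc7a11. A match describes these letters and no binding was measured.

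Serine synthesis and mitochondrial folate enzymes were among the raised genes. Of 23 members 6 were higher and 0 lower, with and without Ctrl_CE replicates 2 and 4 (median log2FC 0.16). Phgdh, which commits 3-phosphoglycerate to serine, had 0 to 0.474 CPM (median 0.279) in Ctrl_CE and 1.64 to 6.01 CPM (median 2.71) in MetR_CE (log2FC 3.68 ± 0.42, adjusted p = 8.57e-07). Psat1, the next enzyme, had 7.79 to 16.3 CPM (median 13.3) in Ctrl_CE and 50.7 to 78.6 CPM (median 62.3) in MetR_CE (log2FC 2.28 ± 0.24, adjusted p = 3.32e-07). Aldh1l2, which oxidises formyl-tetrahydrofolate in mitochondria, had 0.838 to 1.48 CPM (median 0.994) in Ctrl_CE and 4.52 to 8.78 CPM (median 6.62) in MetR_CE (log2FC 2.59 ± 0.21, adjusted p = 1.73e-09). In these enzymes every MetR_CE library lay above every Ctrl_CE library. Mthfd2, the mitochondrial dehydrogenase that feeds formate synthesis, was at 4.55 to 15.7 CPM (median 8.64) in Ctrl_CE and 10.7 to 49.5 CPM (median 31.1) in MetR_CE and overlapped (log2FC 1.76 ± 0.28, adjusted p = 9.47e-05). Mthfd1l, which completes that route, had 1.03 to 3.26 CPM (median 1.36) in Ctrl_CE and 3.27 to 5.24 CPM (median 4.07) in MetR_CE (log2FC 1.21 ± 0.25, adjusted p = 0.00144). Psph, the phosphatase that ends serine synthesis, was at the threshold with log2FC 0.59 ± 0.14, adjusted p = 0.00357, and its call was lost when any of 9 of the 14 libraries was left out. None of the 5 called members in the promoter table held the C/EBP-ATF element and 1 held the antioxidant response element (Phgdh). Pck2, the mitochondrial phosphoenolpyruvate carboxykinase and another ATF4 target, rose from a median of 4.13 CPM (3.65 to 5.15) in Ctrl_CE to 23.1 CPM (12 to 35.4) in MetR_CE, without overlap (log2FC 2.51 ± 0.25, adjusted p = 8.79e-08). The mitochondrial chaperone Hspa9 rose from a median of 608 CPM (561 to 689) in Ctrl_CE to 991 CPM (913 to 1050) in MetR_CE, also without overlap (log2FC 0.68 ± 0.07, adjusted p = 3.32e-07).

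**Figure D1:**
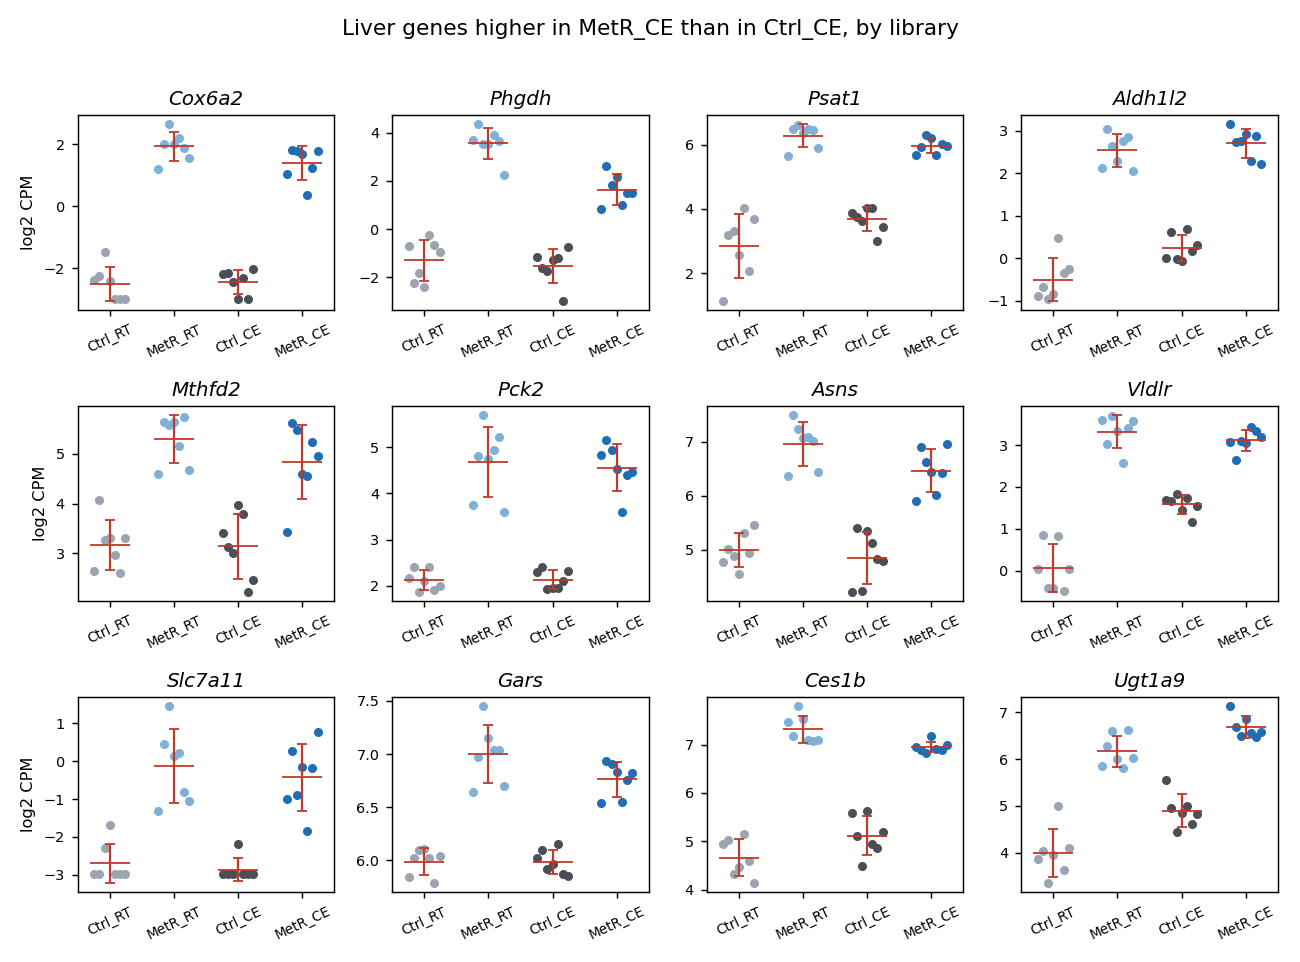
Levels of 12 genes called higher in MetR_CE than in Ctrl_CE, in log2 CPM (vertical axis) per liver library; points are libraries (7 per group), the line is the mean and the bar the SD, and about -3 is the value of a library with 0 counts. In Ctrl_CE, Psat1 lay at 7.79 to 16.3 CPM and in MetR_CE at 50.7 to 78.6 CPM, and the MetR_RT libraries stand beside them.

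The methionine cycle and transsulfuration enzymes gave no call, though 14 had a log2FC above 0 and 1 below (median 0.11). Their summed level was 10550 to 14379 CPM (median 11894) in Ctrl_CE and 13404 to 16562 CPM (median 15185) in MetR_CE, which overlapped. Of 15 members 0 were called by edgeR and by DESeq2, while 5 had an unadjusted p under 0.05 and 2 were called higher without Ctrl_CE replicates 2 and 4. Here and below, counts at an unadjusted p under 0.05 (edgeR) stand without the share over all genes. They therefore do not show a shift of a list. Among the 300 solute carriers, a broad family, 110 had such a p. Mat1a, which makes S-adenosylmethionine in hepatocytes, had 4580 to 8050 CPM (median 5330) in Ctrl_CE and 7390 to 8890 CPM (median 7760) in MetR_CE and a log2FC of 0.51 ± 0.16 (adjusted p = 0.0328), which is below 1.5-fold with all libraries and 0.61 without Ctrl_CE replicate 4, where it was called. Gnmt, the methyltransferase that burns excess S-adenosylmethionine, had 1400 to 2040 CPM (median 1610) in Ctrl_CE and 1510 to 2430 CPM (median 2040) in MetR_CE (log2FC 0.24 ± 0.11, adjusted p = 0.166). Cbs, the first enzyme of transsulfuration, had 629 to 805 CPM (median 676) in Ctrl_CE and 729 to 859 CPM (median 754) in MetR_CE (log2FC 0.16 ± 0.07, adjusted p = 0.146). Bhmt, which remethylates homocysteine with betaine, had 1510 to 2480 CPM (median 1850) in Ctrl_CE and 1710 to 2460 CPM (median 1920) in MetR_CE in the cold (log2FC 0.11 ± 0.18, adjusted p = 0.765). It was lower in MetR_RT than in Ctrl_RT (log2FC -1.12 ± 0.18, adjusted p = 3.28e-05), and both effects differed (difference 1.23 ± 0.25, adjusted p = 0.00937). Cysteine oxidation, taurine and sulfide genes gave 0 calls of 11 by edgeR and by DESeq2, with 5 at an unadjusted p under 0.05. Of 14 polyamine and salvage genes 1 was higher, Odc1, the rate-limiting enzyme of polyamine synthesis, with 59.4 to 83.3 CPM (median 76.3) in Ctrl_CE and 105 to 167 CPM (median 132) in MetR_CE and no overlap (log2FC 0.92 ± 0.14, adjusted p = 3.99e-05). Amino acid transporters gave 2 higher and 2 lower of 24. Slc3a2, the shared heavy chain of several of them, had 41.8 to 82.6 CPM (median 55.5) in Ctrl_CE and 70.8 to 109 CPM (median 90) in MetR_CE (log2FC 0.72 ± 0.13, adjusted p = 0.000216), and the other higher member was Slc7a11. Slc7a8, a carrier of neutral amino acids, fell (log2FC -0.73 ± 0.20, adjusted p = 0.0114), but only to -0.57, uncalled, without Ctrl_CE replicate 2. Slc3a1, the heavy chain of the cystine carrier of kidney, had log2FC -0.83 ± 0.26, adjusted p = 0.0301 with all libraries, and lost its call when any of 7 of the 14 was left out. Among 27 genes of the urea cycle and amino acid breakdown 1 was called, Tat, which degrades tyrosine. It had 1390 to 5200 CPM (median 1750) in Ctrl_CE and 1070 to 1410 CPM (median 1230) in MetR_CE (log2FC -0.84 ± 0.27, adjusted p = 0.0327), and -0.50, uncalled, without Ctrl_CE replicate 4. Its call was also lost when any of 4 MetR_CE libraries was left out. Cps1, the entry enzyme of the urea cycle, lay higher in each MetR_CE library (3410 to 4490 CPM (median 4100) in Ctrl_CE and 4800 to 6350 CPM (median 5170) in MetR_CE) at less than 1.5-fold (log2FC 0.45 ± 0.10, adjusted p = 0.00335).

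Glutathione S-transferases and NRF2 targets also held raised genes. Of 32 listed genes 8 were higher and 2 lower, and of the 22 glutathione S-transferases, which conjugate glutathione to reactive compounds, 8 were higher and 0 lower (median log2FC 0.19). Both counts include Gstm1, Gstm2, Gstm3, Gsta2 and Gsta4, so they are not independent. Slc7a11, another higher member of the first list, also counts in the stress response list. Gstm2 rose from a median of 37.6 CPM (32.4 to 49.9) in Ctrl_CE to 105 CPM (87.9 to 112) in MetR_CE (log2FC 1.41 ± 0.14, adjusted p = 8.79e-08). Gstm1 rose from a median of 647 CPM (485 to 1070) in Ctrl_CE to 1340 CPM (1190 to 1650) in MetR_CE (log2FC 1.01 ± 0.14, adjusted p = 1.78e-05). Gsta2 had 0.838 to 7.9 CPM (median 6.16) in Ctrl_CE and 13.2 to 29.3 CPM (median 20.9) in MetR_CE (log2FC 2.07 ± 0.26, adjusted p = 3.85e-06). These 3 had no overlap, whereas Gstm3 did, at 22.8 to 60.1 CPM (median 36) in Ctrl_CE and 39.3 to 84.4 CPM (median 65.1) in MetR_CE (log2FC 0.83 ± 0.23, adjusted p = 0.0148). Members of this family are near-identical in places, so reads may be shared among them. Nqo1, the quinone reductase used as an NRF2 marker, had 4.91 to 9.69 CPM (median 6.37) in Ctrl_CE and 9.17 to 17.1 CPM (median 11.7) in MetR_CE (log2FC 0.80 ± 0.20, adjusted p = 0.00686). Aox1, aldehyde oxidase, had 85.5 to 154 CPM (median 122) in Ctrl_CE and 167 to 203 CPM (median 198) in MetR_CE (log2FC 0.64 ± 0.12, adjusted p = 0.000349), and 0.57, uncalled, without Ctrl_CE replicate 4. Pir, an iron-binding NRF2 target, had 15.2 to 21.9 CPM (median 18.8) in Ctrl_CE and 27.7 to 35.6 CPM (median 33.1) in MetR_CE, without overlap (log2FC 0.74 ± 0.09, adjusted p = 1.38e-06). Htatip2, an oxidoreductase, had 35.9 to 63.2 CPM (median 54) in Ctrl_CE and 78.9 to 107 CPM (median 87.8) in MetR_CE, likewise (log2FC 0.83 ± 0.15, adjusted p = 0.000363). Gclc, the catalytic subunit that limits glutathione synthesis, stayed at 284 to 500 CPM (median 378) in Ctrl_CE and 369 to 501 CPM (median 395) in MetR_CE (log2FC 0.13 ± 0.13, adjusted p = 0.589). Hmox1 and G6pdx were the lower members. Hmox1, the heme oxygenase of macrophages and hepatocytes, was at 18 to 94.5 CPM (median 39) in Ctrl_CE and 19.3 to 29.6 CPM (median 23.7) in MetR_CE (log2FC -0.84 ± 0.22, adjusted p = 0.00906; -0.56 and uncalled without Ctrl_CE replicate 4). G6pdx, which makes NADPH, was at 3.2 to 13 CPM (median 8.24) in Ctrl_CE and 2.9 to 4.61 CPM (median 3.64) in MetR_CE (log2FC -1.12 ± 0.23, adjusted p = 0.00124). Of the 10 called genes of this list, 8 were in the promoter table. Of these 8, 1 held the antioxidant response element, the lower member G6pdx, against 11.5% of all genes in that table. Summed levels of the 15 Kupffer cell and macrophage markers, given below, moved the same way as Hmox1, and their part in it was not tested.

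Other detoxification genes split. Cytochromes P450 of families 1 to 4 gave 7 higher and 7 lower of 62, UDP-glucuronosyltransferases 1 higher and 3 lower of 17, and sulfotransferases 1 higher (Sult1c2) and 1 lower (Sult2a7) of 11. Cyp2a5, a coumarin hydroxylase that NRF2 and stress raise, had 325 to 609 CPM (median 442) in Ctrl_CE and 894 to 1370 CPM (median 1280) in MetR_CE, without overlap (log2FC 1.41 ± 0.14, adjusted p = 8.79e-08). Its near-copy Cyp2a4, with which it may share reads, had 0.234 to 0.838 CPM (median 0.279) in Ctrl_CE and 0.482 to 7.88 CPM (median 1.22) in MetR_CE (log2FC 2.32 ± 0.49, adjusted p = 0.00175), and 1.41 without MetR_CE replicate 1, which alone reached 7.88 CPM. Cyp2b9 had 0 to 1.83 CPM (median 0.186) in Ctrl_CE and 0.231 to 13.5 CPM (median 3.73) in MetR_CE (log2FC 3.67 ± 0.83, adjusted p = 0.0032), and 4.47 without Ctrl_CE replicate 3. Among the lower P450 genes, Cyp2c29 had 516 to 1010 CPM (median 652) in Ctrl_CE and 194 to 441 CPM (median 377) in MetR_CE (log2FC -1.05 ± 0.19, adjusted p = 0.000377). Cyp2c55 had 1.31 to 3.02 CPM (median 2.18) in Ctrl_CE and 0.23 to 0.758 CPM (median 0.539) in MetR_CE (log2FC -2.09 ± 0.28, adjusted p = 1.16e-05). These were without overlap. Ugt1a9 rose from a median of 28.5 CPM (21.5 to 46.8) in Ctrl_CE to 95.5 CPM (89.1 to 140) in MetR_CE, without overlap (log2FC 1.77 ± 0.19, adjusted p = 3.32e-07). Ugt1a5 fell from a median of 20.1 CPM (7.25 to 29.4) in Ctrl_CE to 7.16 CPM (4.67 to 9.3) in MetR_CE (log2FC -1.47 ± 0.33, adjusted p = 0.00286). Both transcripts share their last exons at the Ugt1a locus, so the split of reads between them is uncertain. Ces1b, a carboxylesterase, had 22.2 to 49.6 CPM (median 34.6) in Ctrl_CE and 113 to 144 CPM (median 120) in MetR_CE, without overlap (log2FC 1.79 ± 0.16, adjusted p = 1.37e-08).

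Some bile acid and sterol carriers rose. Of 25 bile acid genes 4 were higher and 0 lower (median log2FC 0.01), and each of the 4 is a carrier. Abcg5 and Abcg8 form the dimer that sends cholesterol into bile. Abcg8 had 115 to 162 CPM (median 141) in Ctrl_CE and 233 to 362 CPM (median 315) in MetR_CE (log2FC 1.17 ± 0.11, adjusted p = 8.66e-08). Abcg5 had 105 to 164 CPM (median 139) in Ctrl_CE and 187 to 292 CPM (median 230) in MetR_CE (log2FC 0.79 ± 0.13, adjusted p = 0.000179). These were without overlap. Their annotated spans overlap, and the library type does not mark strand, so their reads cannot be told apart there. Abcc3, an exporter of conjugates to blood, had 111 to 181 CPM (median 138) in Ctrl_CE and 214 to 330 CPM (median 311) in MetR_CE (log2FC 1.02 ± 0.18, adjusted p = 0.000176). Slco1a4, an organic anion importer, had 8.59 to 19.1 CPM (median 12.3) in Ctrl_CE and 16.5 to 47.8 CPM (median 29.1) in MetR_CE (log2FC 1.37 ± 0.31, adjusted p = 0.00343). Cyp39a1, which hydroxylates 24-hydroxycholesterol on the way to bile acids, rose from a median of 48.4 CPM (30 to 115) in Ctrl_CE to 204 CPM (181 to 266) in MetR_CE, without overlap (log2FC 1.98 ± 0.22, adjusted p = 4.34e-07). Glucose and glycogen genes gave 3 higher and 0 lower of 33. Beside Pck2 these were Ugp2, which makes UDP-glucose, at 349 to 554 CPM (median 524) in Ctrl_CE and 725 to 1250 CPM (median 885) in MetR_CE (log2FC 0.85 ± 0.12, adjusted p = 2.4e-05). Gys2, the glycogen synthase of liver, had 144 to 216 CPM (median 183) in Ctrl_CE and 217 to 362 CPM (median 267) in MetR_CE (log2FC 0.71 ± 0.12, adjusted p = 0.000113). These were without overlap. Pck1, the cytosolic enzyme of gluconeogenesis, was at 1890 to 5580 CPM (median 2550) in Ctrl_CE and 3120 to 4630 CPM (median 3590) in MetR_CE (log2FC 0.36 ± 0.26, adjusted p = 0.427).

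Several fat synthesis genes were lower. Of 26 members 7 were lower and 0 higher (median log2FC -0.45), and 7 lower and 1 higher without Ctrl_CE replicates 2 and 4. The lower count was 4 without Ctrl_CE replicate 2, 6 or 7 or MetR_CE replicate 5, 6 or 7. Scd1, the main desaturase of liver, had 4470 to 20400 CPM (median 11800) in Ctrl_CE and 1060 to 7940 CPM (median 2740) in MetR_CE (log2FC -1.97 ± 0.46, adjusted p = 0.00424). Pnpla3, a lipid droplet protein that SREBP-1c drives, had 1.33 to 25.9 CPM (median 4.27) in Ctrl_CE and 0.385 to 2.01 CPM (median 0.922) in MetR_CE (log2FC -3.49 ± 0.71, adjusted p = 0.00111). Acss2, which activates acetate, had 122 to 534 CPM (median 374) in Ctrl_CE and 96.5 to 199 CPM (median 149) in MetR_CE (log2FC -1.17 ± 0.28, adjusted p = 0.00435). Scd2 had 6.27 to 15 CPM (median 7.36) in Ctrl_CE and 4.12 to 5.43 CPM (median 4.68) in MetR_CE (log2FC -0.84 ± 0.19, adjusted p = 0.00308). The groups overlapped in these genes except in Scd2. Fasn, the fatty acid synthase, had 1660 to 6930 CPM (median 3300) in Ctrl_CE and 1240 to 1920 CPM (median 1600) in MetR_CE (log2FC -1.29 ± 0.41, adjusted p = 0.0363). The calls of Fasn, Elovl5 and Gpam were each lost when any of 8 to 10 of the 14 libraries was left out, with adjusted p up to 0.14. Cholesterol synthesis and uptake gave 3 lower and 0 higher of 25, and 5 lower without Ctrl_CE replicate 4. Insig1, which holds SREBP back and is its target, had 287 to 702 CPM (median 582) in Ctrl_CE and 184 to 400 CPM (median 243) in MetR_CE (log2FC -0.90 ± 0.26, adjusted p = 0.0192). Tm7sf2, a sterol reductase, had 72.9 to 200 CPM (median 112) in Ctrl_CE and 44.8 to 99.5 CPM (median 61.1) in MetR_CE (log2FC -0.87 ± 0.23, adjusted p = 0.00996). Fatty acid oxidation and ketogenesis gave 2 higher (Acot3 and Acot4) and 1 lower (Acaa1b) of 34, all lost when any of 6 to 9 of the 14 libraries was left out. Cpt1a, which admits fatty acids to mitochondria, lay at 496 to 624 CPM (median 516) in Ctrl_CE and 637 to 872 CPM (median 740) in MetR_CE, without overlap but below 1.5-fold (log2FC 0.45 ± 0.13, adjusted p = 0.0193). Among 26 genes of apolipoproteins and lipoprotein handling 3 were higher (Apoc2, Apol9a and Apol9b) and 2 lower. Pltp, which transfers phospholipids between lipoproteins, had 29.4 to 51.1 CPM (median 36.5) in Ctrl_CE and 15.1 to 18.8 CPM (median 17.7) in MetR_CE, without overlap (log2FC -1.11 ± 0.12, adjusted p = 5.08e-07). Lpl, the lipase that macrophages also make, had 14.1 to 26.1 CPM (median 17.7) in Ctrl_CE and 7.55 to 14.6 CPM (median 9.93) in MetR_CE (log2FC -0.91 ± 0.17, adjusted p = 0.000565). Apoc2, the cofactor of that lipase, had 2.46 to 5.34 CPM (median 3.54) in Ctrl_CE and 4.64 to 7.54 CPM (median 6.16) in MetR_CE (log2FC 0.67 ± 0.16, adjusted p = 0.00363).

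Genes that differ between the sexes in liver shifted on both sides. Of 23 genes known as higher in males 0 were higher and 9 lower (median log2FC -0.78), and 12 were lower without Ctrl_CE replicates 2 and 4. Of 21 known as higher in females 6 were higher and 1 lower (median 1.06). Both lists share called members with others in this report. Male-biased calls include C6, also a complement gene, and Mup3, Mup7 and Mup20, also major urinary proteins. Female-biased calls include Cyp2a5, Cyp2a4 and Cyp2b9, also P450 genes, and Acot3, also a fatty acid oxidation gene. Among the former, Cyp4a12b, a fatty acid hydroxylase, had 16.1 to 77.4 CPM (median 42.1) in Ctrl_CE and 2.68 to 19.4 CPM (median 12.9) in MetR_CE (log2FC -1.78 ± 0.36, adjusted p = 0.00115). Susd4, a complement inhibitor, had 34 to 63.9 CPM (median 57.1) in Ctrl_CE and 22.7 to 36.5 CPM (median 30.7) in MetR_CE (log2FC -0.79 ± 0.14, adjusted p = 0.000189). Of the 43 major urinary proteins, pheromone carriers made under growth hormone, 16 were lower and 1 higher, and 21 lower and 0 higher without Ctrl_CE replicate 4. Mup20 had 497 to 2610 CPM (median 1480) in Ctrl_CE and 147 to 1050 CPM (median 596) in MetR_CE (log2FC -1.35 ± 0.31, adjusted p = 0.00317). Mup16 had 41.6 to 302 CPM (median 150) in Ctrl_CE and 19 to 82.7 CPM (median 40.2) in MetR_CE (log2FC -1.89 ± 0.39, adjusted p = 0.00137). Members of this cluster are near-identical, so single values are uncertain, and their summed level was 4746 to 19951 CPM in Ctrl_CE and 4038 to 10137 CPM in MetR_CE, which overlapped. Among the female-biased genes, Cyp17a1, a steroid hydroxylase, had 28.2 to 91.5 CPM (median 36.8) in Ctrl_CE and 115 to 214 CPM (median 132) in MetR_CE, without overlap (log2FC 1.75 ± 0.38, adjusted p = 0.00206). Fmo2, a flavin monooxygenase, had 5.75 to 14.3 CPM (median 8.39) in Ctrl_CE and 13 to 28.8 CPM (median 18.3) in MetR_CE (log2FC 1.08 ± 0.20, adjusted p = 0.000451). The lower member of that list was Ntrk2, a neurotrophin receptor, at 0 to 2.65 CPM (median 1.19) in Ctrl_CE and 0.23 to 0.551 CPM (median 0.446) in MetR_CE (log2FC -1.63 ± 0.41, adjusted p = 0.00744). Hepatokines and the growth hormone axis gave 2 higher and 1 lower of 29. Lepr, the leptin receptor, had 5.15 to 58.1 CPM (median 8.68) in Ctrl_CE and 26.6 to 74.4 CPM (median 56.6) in MetR_CE (log2FC 1.53 ± 0.42, adjusted p = 0.0126). Fst, which binds activins, fell from a median of 9.96 CPM (5.62 to 16.6) in Ctrl_CE to 3.05 CPM (2.46 to 4.5) in MetR_CE, without overlap (log2FC -1.64 ± 0.28, adjusted p = 0.000155). Ghr, the growth hormone receptor, had 375 to 556 CPM (median 523) in Ctrl_CE and 291 to 453 CPM (median 368) in MetR_CE (log2FC -0.43 ± 0.10, adjusted p = 0.00275, below 1.5-fold) and Igf1, its main target, 347 to 436 CPM (median 413) in Ctrl_CE and 292 to 396 CPM (median 381) in MetR_CE (log2FC -0.14 ± 0.10, adjusted p = 0.393).

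Most acute phase genes were lower. Of 36 members 22 were lower and 2 higher (median log2FC -1.12), 14 lower without Ctrl_CE replicate 4 and 10 lower without replicates 2 and 4 (median -0.30). The higher members were Il6ra, a subunit of the interleukin-6 receptor, and Hamp. The summed level of the list was 29987 to 140693 CPM in Ctrl_CE and 25363 to 28629 CPM in MetR_CE. Saa1 and Saa2, the serum amyloid A proteins of inflamed liver, share most of their sequence and with it possibly reads. Saa1 had 10.2 to 11000 CPM (median 1120) in Ctrl_CE and 1.54 to 13 CPM (median 7.38) in MetR_CE (log2FC -8.49 ± 1.17, adjusted p = 1.48e-05). Saa2 had 5.39 to 13100 CPM (median 1240) in Ctrl_CE and 1.16 to 7.21 CPM (median 3.1) in MetR_CE (log2FC -9.86 ± 1.29, adjusted p = 7.4e-06). In 6 of 7 Ctrl_CE libraries Saa1 stood above every MetR_CE library, and replicate 1 lay among them. Without Ctrl_CE replicates 2 and 4 the log2FC was -7.04 in Saa1 and -8.31 in Saa2, both called. Orm1 and Orm2 encode alpha-1-acid glycoproteins. Orm1 had 215 to 2690 CPM (median 648) in Ctrl_CE and 86.6 to 161 CPM (median 126) in MetR_CE, without overlap (log2FC -2.87 ± 0.39, adjusted p = 1.19e-05; -2.07 without replicates 2 and 4). Orm2 had 1.3 to 1410 CPM (median 69.6) in Ctrl_CE and 1.56 to 2.48 CPM (median 1.77) in MetR_CE (log2FC -7.32 ± 1.0, adjusted p = 1.19e-05; -5.07). Hp, haptoglobin, had 1830 to 15700 CPM (median 3760) in Ctrl_CE and 1260 to 1810 CPM (median 1720) in MetR_CE, without overlap (log2FC -1.69 ± 0.31, adjusted p = 0.000364; -0.89). Lrg1, a leucine-rich glycoprotein, had 129 to 1380 CPM (median 297) in Ctrl_CE and 82 to 144 CPM (median 123) in MetR_CE (log2FC -1.95 ± 0.35, adjusted p = 0.00029; -1.13). Lcn2, lipocalin 2, had 1.39 to 1300 CPM (median 113) in Ctrl_CE and 2.85 to 8.26 CPM (median 6.31) in MetR_CE (log2FC -5.65 ± 0.94, adjusted p = 0.000126; -3.47). Without Ctrl_CE replicate 4 alone the log2FC was -7.32 in Saa1, -8.67 in Saa2, -5.99 in Orm2, -4.43 in Lcn2, -3.89 in Saa3 and -3.34 in Orm3. Orm1, Orm2, Hp, Lrg1 and Lcn2 stayed called without both libraries, whereas Saa3 and Orm3 did not (-2.49 and -2.28). The metallothioneins Mt1 and Mt2 rested on Ctrl_CE replicate 4 alone, where Mt1 reached 984 CPM against a group median of 6.71. Mt1 had log2FC -4.03 ± 1.02, adjusted p = 0.00763 and Mt2 log2FC -5.31 ± 1.34, adjusted p = 0.00745 with all libraries, -0.76 and -0.43 without replicate 4, and 0.63 and 1.12 without replicates 2 and 4, the last 4 uncalled.

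Complement genes were lower in 15 of 31 members and higher in 0 (median log2FC -0.54), and lower in 10 without Ctrl_CE replicates 2 and 4. Of the 15, 6 are known as genes of phagocytes (C1qa, C1qb, C1qc, Cfp, C3ar1 and C5ar1), and C1qa, C1qb and C1qc also count among the Kupffer cell markers below. The part of the macrophage markers in these calls was not tested. The terminal components that form the membrane pore led the list. C9 had 378 to 589 CPM (median 454) in Ctrl_CE and 76.2 to 176 CPM (median 128) in MetR_CE (log2FC -1.75 ± 0.16, adjusted p = 3.84e-08; -1.78 without both libraries). C6 had 157 to 264 CPM (median 203) in Ctrl_CE and 24 to 79.6 CPM (median 61.6) in MetR_CE (log2FC -1.82 ± 0.20, adjusted p = 4.34e-07; -1.79). C8a had 439 to 756 CPM (median 527) in Ctrl_CE and 137 to 264 CPM (median 259) in MetR_CE (log2FC -1.23 ± 0.16, adjusted p = 8.02e-06; -1.14). C8b had 238 to 372 CPM (median 294) in Ctrl_CE and 93.8 to 219 CPM (median 180) in MetR_CE (log2FC -0.76 ± 0.13, adjusted p = 0.000236; -0.73). Hc, complement C5, had 871 to 1780 CPM (median 1080) in Ctrl_CE and 534 to 671 CPM (median 623) in MetR_CE (log2FC -0.93 ± 0.12, adjusted p = 2.91e-06; -0.75). In these 5 genes each MetR_CE library lay below each Ctrl_CE library, the calls held without Ctrl_CE replicates 2 and 4, and MetR_CE replicate 1 was the lowest library in C9, C6, C8a and C8b. C3, the hub of the cascade, had 7950 to 28500 CPM (median 10100) in Ctrl_CE and 7580 to 9220 CPM (median 8640) in MetR_CE (log2FC -0.59 ± 0.19, adjusted p = 0.0412), with a call lost when any of 9 of the 14 libraries was left out.

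**Figure D2:**
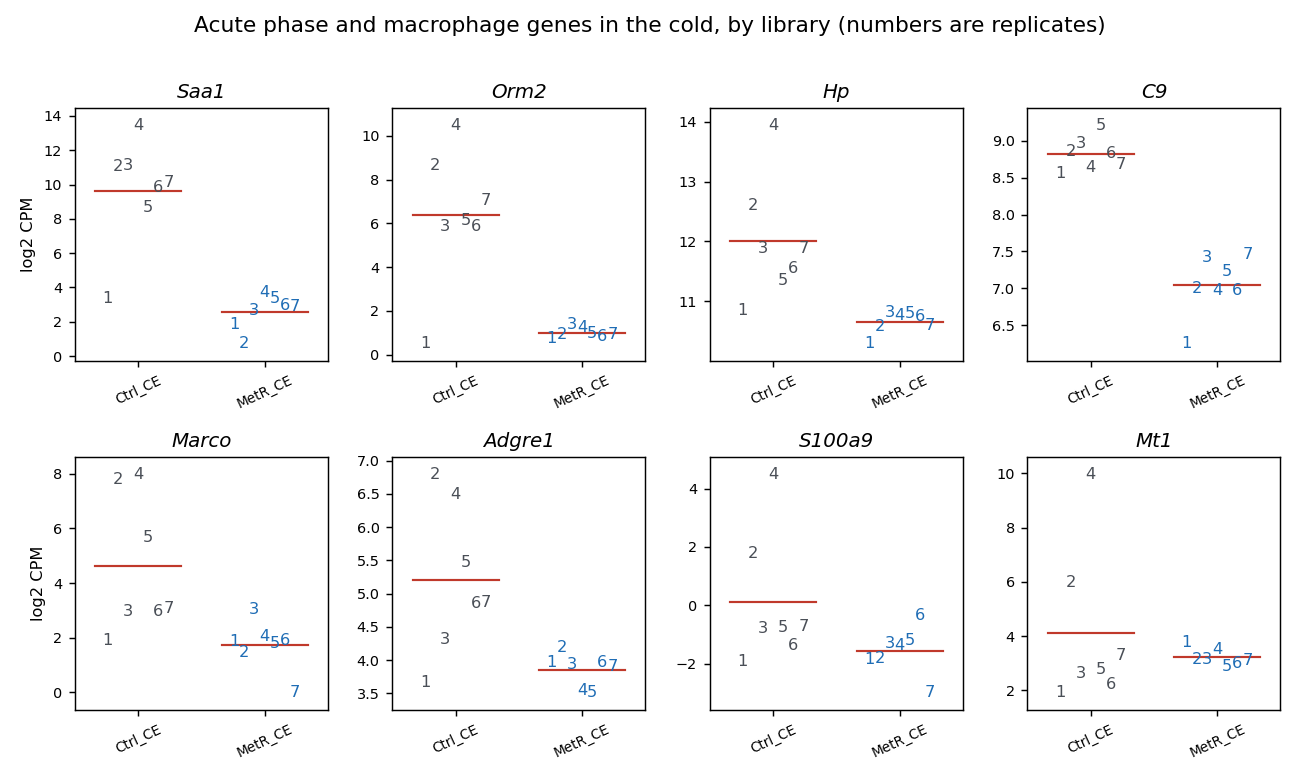
Levels of 8 acute phase, complement and phagocyte genes in log2 CPM (vertical axis) in the 7 Ctrl_CE and 7 MetR_CE libraries; each digit is a library and names its replicate, and the line is the group mean. Ctrl_CE replicate 4 holds the highest Saa1, Orm2, Hp, Marco, S100a9 and Mt1 levels, while C9 lies at 378 to 589 CPM in Ctrl_CE and 76.2 to 176 CPM in MetR_CE without such a library.

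Markers of Kupffer cells, the resident macrophages of liver, were lower in 14 of 15 members and higher in 0 (median log2FC -1.06), and lower in 9 without Ctrl_CE replicates 2 and 4 (median -0.76). The member that was not called was Slc40a1, the iron exporter ferroportin, at 120 to 221 CPM (median 165) in Ctrl_CE and 160 to 228 CPM (median 175) in MetR_CE (log2FC 0.20 ± 0.13, adjusted p = 0.357). The list summed to 511 to 1820 CPM in Ctrl_CE and 528 to 644 CPM in MetR_CE, and no marker was at 0 in all libraries. Csf1r, the receptor on which macrophages depend, had 51.2 to 179 CPM (median 116) in Ctrl_CE and 45.8 to 53.9 CPM (median 50.6) in MetR_CE (log2FC -1.20 ± 0.18, adjusted p = 3.24e-05; -0.93 without both libraries). Clec4f, a lectin specific to Kupffer cells, had 92 to 205 CPM (median 160) in Ctrl_CE and 85.6 to 100 CPM (median 94.7) in MetR_CE (log2FC -0.69 ± 0.13, adjusted p = 0.000622; -0.57, uncalled). Timd4, which marks long-lived Kupffer cells, had 5.02 to 23.8 CPM (median 10.6) in Ctrl_CE and 3.7 to 5.5 CPM (median 4.07) in MetR_CE (log2FC -1.51 ± 0.26, adjusted p = 0.000157; -0.95). Adgre1, the F4/80 antigen, had 12.5 to 110 CPM (median 29.1) in Ctrl_CE and 11.3 to 18 CPM (median 15.1) in MetR_CE (log2FC -1.71 ± 0.31, adjusted p = 0.000304; -0.88). Marco, a scavenger receptor, had 3.58 to 249 CPM (median 8.36) in Ctrl_CE and 0.873 to 7.99 CPM (median 3.5) in MetR_CE (log2FC -4.39 ± 0.79, adjusted p = 0.000331; -2.04), with 223 CPM and 249 CPM in Ctrl_CE replicates 2 and 4, and a log2FC of -3.75 without replicate 4. In all 5 genes Ctrl_CE replicate 1 lay within the range of the MetR_CE libraries. Ctrl_CE replicates 2 and 4 held the 2 highest levels of Csf1r, Timd4, Adgre1 and Marco. At 22 °C 6 of the 15 markers were lower and 1 higher in MetR_RT (median log2FC -0.69). Ctrl_RT had 42.9 to 63.8 CPM of Csf1r and 13.8 to 17.4 CPM of Adgre1, which overlapped MetR_CE. Other markers lay lower in MetR_CE than in Ctrl_RT, with 51 to 67.1 against 78.3 to 113 CPM in Cd5l and 22.8 to 33.2 against 36.3 to 51.2 CPM in C1qa.

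Neutrophil and monocyte markers were lower in 12 of 15 members and higher in 0 (median log2FC -2.53), but in 2 without Ctrl_CE replicates 2 and 4 (median -0.57). They were scarce, with a sum of 7.53 to 138 CPM in Ctrl_CE and 6.93 to 9.45 CPM in MetR_CE. S100a9, a calcium-binding protein of neutrophils, had 0.139 to 22.1 CPM (median 0.468) in Ctrl_CE and 0 to 0.651 CPM (median 0.258) in MetR_CE (log2FC -3.68 ± 0.92, adjusted p = 0.00668; -1.64 and uncalled without Ctrl_CE replicate 4). Ltf, lactoferrin, had 54 counts in Ctrl_CE and 0 in MetR_CE, which is at least 15.3-fold lower at the limit of 3 counts over the group. Ctrl_CE replicate 2 alone held 1.82 CPM of Ltf, and the fitted log2FC went from -5.88 to -4.72 without it, both called. Prtn3, a granule protease, had 332 counts against 1, a ratio of 282 (95% interval 50.2 to 11200, counting error only), with 17.7 CPM in Ctrl_CE replicate 4 and 5.96 CPM in replicate 2. The fitted log2FC of Prtn3 was -7.53 with all libraries, -6.18 without Ctrl_CE replicate 4, -8.72 without MetR_CE replicate 2 and -3.98, uncalled, without Ctrl_CE replicates 2 and 4. Acod1 and Chil3, genes of activated myeloid cells, lost their calls without Ctrl_CE replicate 4 (-1.21 and -1.65 against -5.96 ± 1.40 and -4.60 ± 1.08). Cxcl13, a B cell attractant, fell (log2FC -5.18 ± 1.13, adjusted p = 0.00215), and had -2.93 without Ctrl_CE replicate 4 and -0.97, uncalled, without replicates 2 and 4. Chemokines and their receptors were lower in 10 of 36 and higher in 0 with all libraries, and lower in 5 without Ctrl_CE replicate 4 and in 6 without MetR_CE replicate 2. Without Ctrl_CE replicates 2 and 4 they were lower in 2 and higher in 1. Cx3cr1, a receptor of monocyte-derived cells, had 0.79 to 1.77 CPM (median 1.21) in Ctrl_CE and 0.276 to 0.515 CPM (median 0.308) in MetR_CE, without overlap (log2FC -1.70 ± 0.29, adjusted p = 0.000162; -1.54). Antigen presentation genes were lower in 10 of 26 and higher in 0, and lower in 5 without both libraries. Psmb8, a subunit of the immunoproteasome, had 21.6 to 29 CPM (median 26.7) in Ctrl_CE and 15 to 17.7 CPM (median 15.7) in MetR_CE, without overlap (log2FC -0.66 ± 0.09, adjusted p = 5.01e-06; -0.61). Cd74, the invariant chain of MHC class II, had 32 to 81 CPM (median 58.8) in Ctrl_CE and 23.2 to 37.4 CPM (median 31.4) in MetR_CE (log2FC -0.90 ± 0.20, adjusted p = 0.00234; -0.71). Tap1, the peptide transporter, had log2FC -0.63 ± 0.10, adjusted p = 3.99e-05, and -0.55, uncalled, without Ctrl_CE replicate 4.

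Interferon-stimulated genes did not move as a block, with 2 higher (Usp18 and Ifi44) and 4 lower of 49. The lower count was 1 without Ctrl_CE replicate 4 or MetR_CE replicate 1 or 2, and 2 without MetR_CE replicate 4, 5 or 7. Usp18, which dampens interferon signalling, had 7.12 to 10.9 CPM (median 9.12) in Ctrl_CE and 9.37 to 23.2 CPM (median 17.3) in MetR_CE (log2FC 0.88 ± 0.20, adjusted p = 0.00362). Ly6e had 122 to 280 CPM (median 222) in Ctrl_CE and 98.5 to 137 CPM (median 107) in MetR_CE (log2FC -0.84 ± 0.15, adjusted p = 0.000273). Cxcl10 fell to 0.297 to 1.83 CPM (median 1.16) (log2FC -1.56 ± 0.47, adjusted p = 0.0267), but had -0.54, uncalled, without Ctrl_CE replicate 4, where it alone reached 15 CPM, and was also uncalled without MetR_CE replicates 1 or 2.

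Other cell type lists follow. Erythroid markers were lower in 6 of 8 members, with sums of 95.4 to 202 CPM in Ctrl_CE and 50.4 to 104 CPM in MetR_CE. Hbb-bs, a beta globin, had 33.8 to 87.9 CPM (median 46.6) in Ctrl_CE and 21.9 to 33.7 CPM (median 28.1) in MetR_CE, without overlap (log2FC -0.96 ± 0.20, adjusted p = 0.00124; its near-copies may share reads). Alas2, which starts heme synthesis in red cells, had 32.2 to 110 CPM (median 92.8) in Ctrl_CE and 15.3 to 55.2 CPM (median 46.9) in MetR_CE (log2FC -0.90 ± 0.22, adjusted p = 0.0068). Slc4a1, the band 3 anion exchanger, had 46 counts against 0, at least 13.0-fold lower. How much blood each sample held was not measured. Cell proliferation genes were lower in 14 of 35 and higher in 0 (median log2FC -0.70), lower in 11 without Ctrl_CE replicates 2 and 4 and in 9 without MetR_CE replicate 2. Top2a, which untangles replicated DNA, had 0.697 to 1.86 CPM (median 1.01) in Ctrl_CE and 0.0644 to 0.539 CPM (median 0.238) in MetR_CE (log2FC -2.39 ± 0.48, adjusted p = 0.000982). Nek2, a mitotic kinase, had 3.43 to 5.1 CPM (median 4.39) in Ctrl_CE and 1.27 to 2.45 CPM (median 1.68) in MetR_CE (log2FC -1.33 ± 0.19, adjusted p = 2.8e-05). These were without overlap. Mki67, the marker Ki-67, had 0.457 to 2.14 CPM (median 1.01) in Ctrl_CE and 0 to 0.482 CPM (median 0.217) in MetR_CE (log2FC -2.16 ± 0.49, adjusted p = 0.00308). Collagen and matrix genes were lower in 4 of 28 and higher in 0, lower in 7 without Ctrl_CE replicate 4 and in 8 without replicates 2 and 4. Col1a1 had 3.73 to 25.7 CPM (median 12.8) in Ctrl_CE and 5.15 to 7.76 CPM (median 5.54) in MetR_CE (log2FC -1.39 ± 0.33, adjusted p = 0.00453). Col3a1 had 13.8 to 70.3 CPM (median 39.4) in Ctrl_CE and 16.6 to 24.5 CPM (median 18.2) in MetR_CE (log2FC -1.27 ± 0.26, adjusted p = 0.00143), both with their lowest Ctrl_CE value in replicate 4. By edgeR and DESeq2 alike, 0 of 15 sinusoidal endothelial, 0 of 14 stellate and 0 of 14 B and plasma cell markers were called, with 4, 1 and 2 at an unadjusted p under 0.05. Cholangiocyte markers gave 1 lower of 12 (Sox9), T and NK cell markers 2 lower of 18 (Cd4 and Ncr1), dendritic cell markers 2 lower of 10 (Batf3 and Xcr1) and hepatocyte markers 2 lower of 10 (Tat and Fgb). Without Ctrl_CE replicate 4 edgeR called 1 T and NK cell, 1 dendritic cell, 1 B cell and 0 hepatocyte markers lower, and without replicates 2 and 4 no dendritic cell marker. Of 11 pancreatic and 10 adipocyte markers 2 and 6 passed the filter on counts, and 0 were called by edgeR and by DESeq2, with 0 and 1 at an unadjusted p under 0.05 and medians of -0.27 and 1.70. The adipocyte median is 1.41 with the member at 0 counts in a group set to its limit. Pericentral and periportal hepatocyte genes gave 0 calls of 15 each by both tools, with 6 and 8 at an unadjusted p under 0.05.

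**Figure D3:**
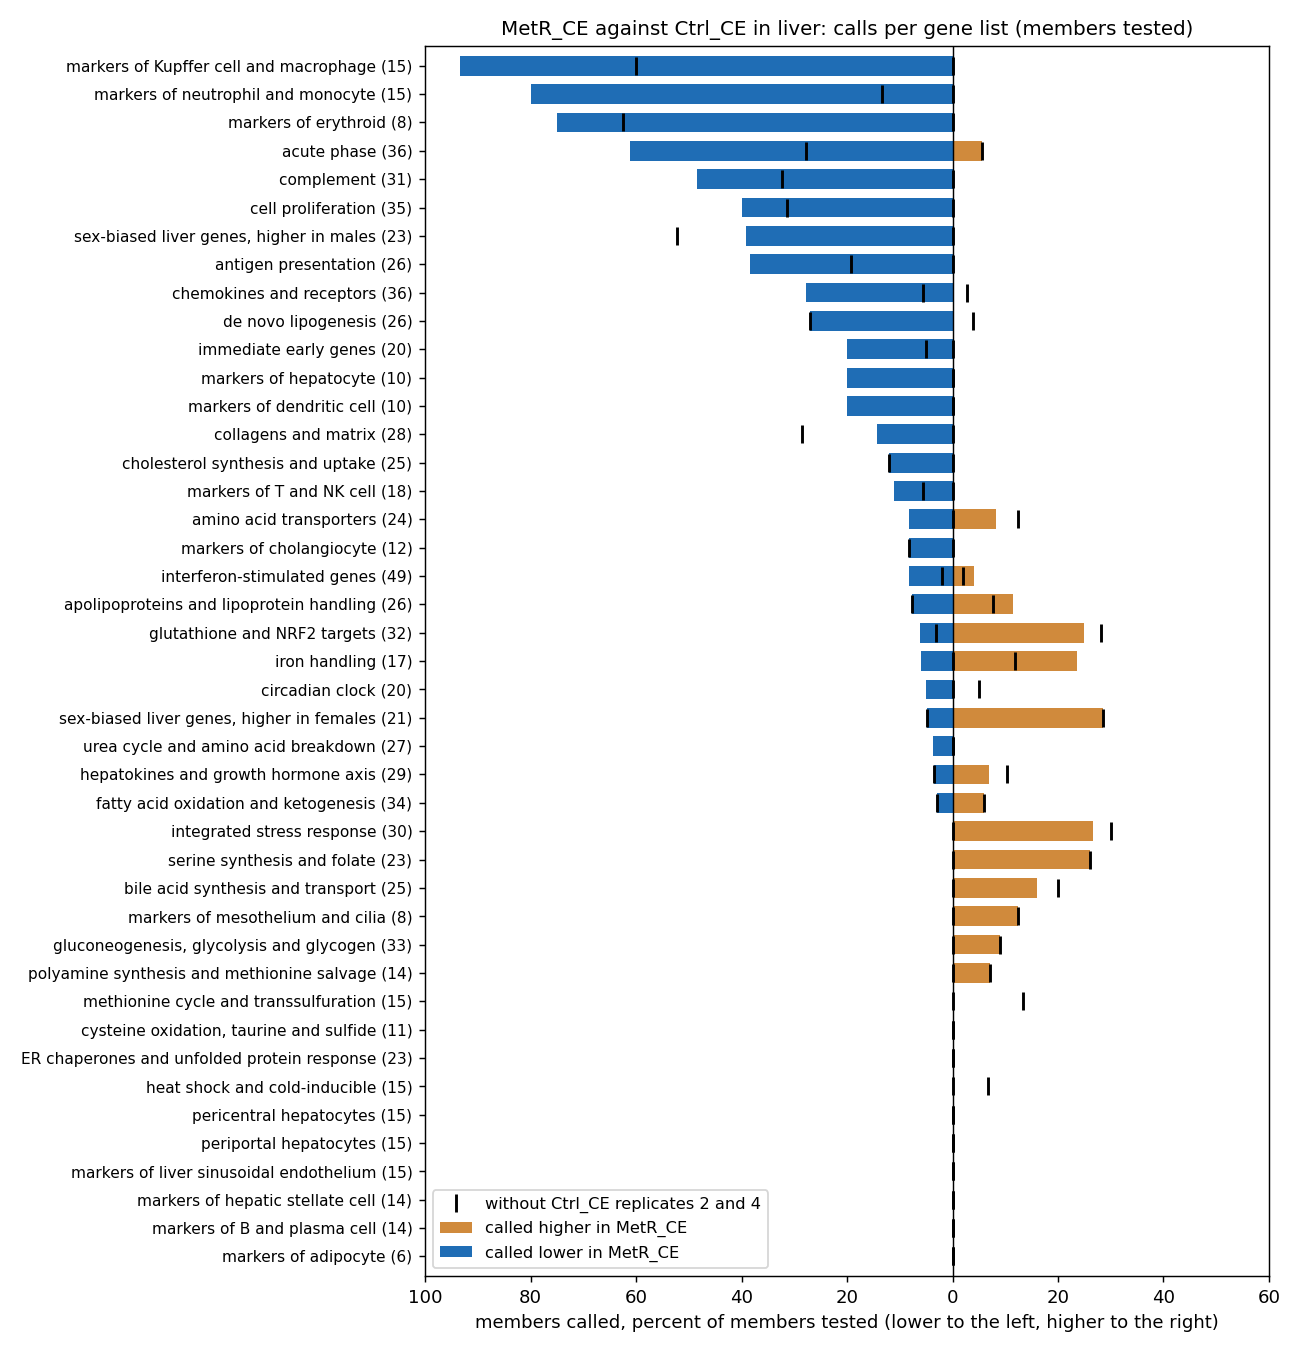
Share of the tested members of each gene list called in MetR_CE against Ctrl_CE, in percent (horizontal axis, lower calls to the left and higher calls to the right), with the number tested in parentheses. Black marks give the same share without Ctrl_CE replicates 2 and 4, which is 2 of 15 in place of 12 of 15 for neutrophil and monocyte markers, while serine synthesis stays at 6 of 23.

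Iron genes gave 4 higher and 1 lower of 17, and 2 higher without Ctrl_CE replicate 1, 2 or 3 or MetR_CE replicate 2, 3, 4 or 6. Fth1, the ferritin heavy chain, rose from a median of 1440 CPM (1360 to 1660) in Ctrl_CE to 2350 CPM (2100 to 2490) in MetR_CE (log2FC 0.63 ± 0.07, adjusted p = 7.12e-07). Tfrc, the transferrin receptor, rose from a median of 37.8 CPM (24 to 53.2) in Ctrl_CE to 69.3 CPM (54.5 to 98.8) in MetR_CE (log2FC 0.95 ± 0.21, adjusted p = 0.00234). These were without overlap. Trf, transferrin, had 14000 to 37300 CPM (median 18300) in Ctrl_CE and 11800 to 12900 CPM (median 12000) in MetR_CE, without overlap (log2FC -0.76 ± 0.14, adjusted p = 0.000587), and -0.55, below the 1.5-fold limit, without Ctrl_CE replicate 4. Hamp, which encodes hepcidin and also counts among the acute phase genes, was at 147 to 646 CPM (median 442) in Ctrl_CE and 377 to 942 CPM (median 723) in MetR_CE (log2FC 0.79 ± 0.27, adjusted p = 0.0462), and its call and that of Bmp6 were lost when any of 11 and any of 8 of the 14 libraries was left out. Immediate early genes were lower in 4 of 20 and higher in 0, and lower in 1 without Ctrl_CE replicates 2 and 4. Btg2 had 5.11 to 42.9 CPM (median 8.16) in Ctrl_CE and 2.99 to 6.68 CPM (median 4.61) in MetR_CE (log2FC -1.51 ± 0.38, adjusted p = 0.00736; -0.79, uncalled). Dusp1, a MAP kinase phosphatase, had 18.6 to 49 CPM (median 27.4) in Ctrl_CE and 9.32 to 19.3 CPM (median 13.5) in MetR_CE (log2FC -1.14 ± 0.31, adjusted p = 0.0133; -1.15). Jund had log2FC -0.65 ± 0.11, adjusted p = 0.000159 (-0.58, uncalled, and also uncalled without MetR_CE replicate 1) and Jun log2FC -0.96 ± 0.28, adjusted p = 0.0187 (-0.65 and uncalled without replicate 4). Clock genes gave 1 lower of 20, Nfil3, a repressor of clock output. It was at 12.2 to 72.2 CPM (median 20.6) in Ctrl_CE and 9.13 to 16.6 CPM (median 10.2) in MetR_CE (log2FC -1.28 ± 0.31, adjusted p = 0.00613). Without Ctrl_CE replicates 2 and 4 it had -0.75, uncalled. Heat shock and cold-inducible genes gave 0 calls of 15 by edgeR and 1 lower by DESeq2, with 7 at an unadjusted p under 0.05. Chaperones of the endoplasmic reticulum (ER) gave 0 calls of 23 by both tools, with 13 at an unadjusted p under 0.05 and a median log2FC of 0.29. Genes of cytosolic ribosomal proteins and their copies had a median log2FC of 0.30 with 3 higher and 0 lower of 180, among them Rpl12 at 73.1 to 103 CPM (median 78.7) in Ctrl_CE and 120 to 146 CPM (median 136) in MetR_CE (log2FC 0.73 ± 0.09, adjusted p = 1.24e-06). Mitochondrial ribosomal proteins gave 0 calls of 78, and the 13 mitochondrially encoded genes 0, by both tools, with 26 and 4 at an unadjusted p under 0.05.

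At 22 °C the diet called 2.88% of genes higher and 4.02% lower, 638 and 891. Of the 258 higher calls in the cold, 125 were also higher at 22 °C, which is 48.4% of the former and 19.6% of the latter. Of the 907 lower calls, 328 were lower at both temperatures, 36.2% and 36.8%. By sign alone, 230 of the higher calls (89.1%) and 805 of the lower calls (88.8%) had a log2FC of the same sign at 22 °C. The same share over all genes tested was not counted, so these shares stand without a baseline. Only 3 genes were called in opposite directions: Eif4ebp3, a repressor of cap-dependent translation, Gpam, which starts triglyceride synthesis, and Lpar1, a receptor of lysophosphatidic acid. Eif4ebp3 was at 1.07 to 9.78 CPM (median 1.95) in Ctrl_CE and 6.3 to 9.87 CPM (median 7.14) in MetR_CE in the cold (log2FC 1.29 ± 0.33, adjusted p = 0.00786). It was at 4.65 to 16.5 CPM (median 10.9) in Ctrl_RT and 2.32 to 5.69 CPM (median 4.26) in MetR_RT at 22 °C (log2FC -1.31 ± 0.32, adjusted p = 0.00336). Gpam had log2FC -0.71 ± 0.23, adjusted p = 0.042 and Lpar1 log2FC -0.90 ± 0.26, adjusted p = 0.018 in the cold, against log2FC 0.67 ± 0.23, adjusted p = 0.0423 and log2FC 0.88 ± 0.28, adjusted p = 0.0239 at 22 °C. Gpam's call in the cold was lost when any of 10 of the 14 libraries was left out.

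The difference of the diet effects, tested as an interaction over all 28 libraries, was called for 234 genes (1.06%), 83 higher and 151 lower. This count depended on single libraries: it was 401 without Ctrl_CE replicate 4, 142 and 127 without Ctrl_CE replicates 2 or 7, and 151 and 147 without MetR_CE replicates 6 or 7. Of the 1165 genes called in the cold, 49 (4.21%) were also called there. Of these, 23 were higher in the cold, and 15 of the 23 also had a log2FC above 0 at 22 °C. The other 26 were lower in the cold, and 20 of them had a log2FC above 0 at 22 °C. The interaction is the effect in the cold minus that at 22 °C. Genes called in both are thus partly picked for their sign at 22 °C, and these splits are no separate result. The members named from here were picked by their interaction p or after their values were seen. Several NRF2 targets responded less in the cold: 12 of 32 list members were called in the interaction, and 15 of 32 were higher at 22 °C. Of the 22 glutathione S-transferases, which share members with that list, 7 were called in the interaction. Gstm1 ran at 289 to 547 CPM (median 409) in Ctrl_RT and 1860 to 2600 CPM (median 2160) in MetR_RT at 22 °C (log2FC 2.38 ± 0.15, adjusted p = 9.14e-13), against 1.01 ± 0.14 in the cold (difference -1.37 ± 0.20, adjusted p = 0.000997). By medians, Gstm1 in Ctrl_CE (647 CPM) lay between Ctrl_RT and MetR_RT, and MetR_CE (1340 CPM) above Ctrl_CE. The same order of effects held for Gstm3 (log2FC 3.0 ± 0.25, adjusted p = 4.61e-10 at 22 °C; difference -2.17 ± 0.33, adjusted p = 0.00159) and Gstm4 (log2FC 1.51 ± 0.10, adjusted p = 3.37e-12; difference -0.99 ± 0.14, adjusted p = 0.000786). It held too for Cyp2a5 (log2FC 2.78 ± 0.15, adjusted p = 4.59e-14; difference -1.36 ± 0.19, adjusted p = 0.000786). Gclc was higher at 22 °C (log2FC 1.03 ± 0.13, adjusted p = 8.07e-07) and differed (difference -0.90 ± 0.18, adjusted p = 0.00908). Vldlr responded by 3.36 ± 0.21 at 22 °C and 1.58 ± 0.18 in the cold (difference -1.79 ± 0.28, adjusted p = 0.00174), and was the 1 member of 30 in the stress response list with an interaction call. That list had 14 higher and 0 lower members at 22 °C (median log2FC 0.70), against 8 and 0 in the cold (median 0.30). For serine synthesis a difference with temperature was not shown, neither for Phgdh (difference -1.50 ± 0.69, adjusted p = 0.279) nor for Psat1 (difference -0.95 ± 0.34, adjusted p = 0.153).

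ER chaperones differed in the other direction. Of 23 members 10 were called in the interaction, and at 22 °C 7 were lower and 0 higher (median log2FC -0.46, against 0.29 in the cold). Sdf2l1, a cofactor of the chaperone BiP, was at 68.3 to 201 CPM (median 93.5) in Ctrl_RT and 22.1 to 83.6 CPM (median 33.7) in MetR_RT at 22 °C (log2FC -1.38 ± 0.28, adjusted p = 0.00064). In the cold it was at 11.3 to 48.6 CPM (median 29.7) in Ctrl_CE and 22 to 59.2 CPM (median 42.9) in MetR_CE (log2FC 0.53 ± 0.28, adjusted p = 0.258), and both effects differed (difference 1.91 ± 0.40, adjusted p = 0.0116). Creld2, an ER stress protein, had log2FC -1.18 ± 0.28, adjusted p = 0.00302 at 22 °C and 0.51 ± 0.28 in the cold (difference 1.69 ± 0.40, adjusted p = 0.0261). Derl3, of the degradation machinery, had -2.06 ± 0.52 and 1.14 ± 0.68 (difference 3.20 ± 0.85, adjusted p = 0.0458). Calr, calreticulin, had -0.46 ± 0.13 and 0.44 ± 0.13 (difference 0.89 ± 0.18, adjusted p = 0.00908). Hspa5, which encodes BiP, missed the threshold (difference 0.81 ± 0.23, adjusted p = 0.0616). By medians, Sdf2l1 was highest in Ctrl_RT, at 93.5 CPM against 29.7 to 42.9 CPM in the other 3 groups.

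Median changes of fat synthesis genes had opposite signs at the 2 temperatures. At 22 °C 5 of 26 were higher and 2 lower (median log2FC 0.26, against -0.45 in the cold), and 3 were called in the interaction. Insig1 was at 98 to 257 CPM (median 199) in Ctrl_RT and 129 to 430 CPM (median 300) in MetR_RT at 22 °C (log2FC 0.69 ± 0.26, adjusted p = 0.0616) and differed from its decrease in the cold (difference -1.59 ± 0.37, adjusted p = 0.022). Scd1 and Fasn had interaction terms that did not pass (difference -2.08 ± 0.64, adjusted p = 0.0851 and difference -1.96 ± 0.58, adjusted p = 0.0728). In the cold, the Ctrl_CE libraries held the highest medians of the 4 groups in Scd1 and Fasn, and MetR_CE the lowest of Scd1. Chrna4, Fst and Anxa3, which binds membranes in a calcium-dependent way, followed the same pattern, lower in the cold and without a called effect at 22 °C. Chrna4 had 0.25 to 6.84 CPM (median 1.4) in Ctrl_RT and 0.0295 to 8.94 CPM (median 1.41) in MetR_RT at 22 °C (difference -4.76 ± 1.06, adjusted p = 0.0168). Fst had 2.76 to 8.72 CPM (median 7.81) in Ctrl_RT and 2.89 to 10.8 CPM (median 5.42) in MetR_RT (difference -1.66 ± 0.39, adjusted p = 0.0241). Anxa3 had 2.67 to 4.11 CPM (median 3.65) in Ctrl_RT and 3.05 to 4.52 CPM (median 3.89) in MetR_RT, against 4.79 to 9.44 CPM (median 6.8) in Ctrl_CE and 3.25 to 4.84 CPM (median 4.08) in MetR_CE in the cold (difference -0.91 ± 0.18, adjusted p = 0.00908). Fuca2, a fucosidase, sat at the 1.5-fold limit in the cold (log2FC -0.59 ± 0.09, adjusted p = 7.01e-05; the call was lost when any of 7 of the 14 libraries was left out) and differed from 22 °C (difference -0.67 ± 0.13, adjusted p = 0.00794). Acute phase members gave 2 interaction calls of 36 and male-biased genes 3 of 23. At 22 °C these lists gave 26 and 17 lower members.

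**Figure D4:**
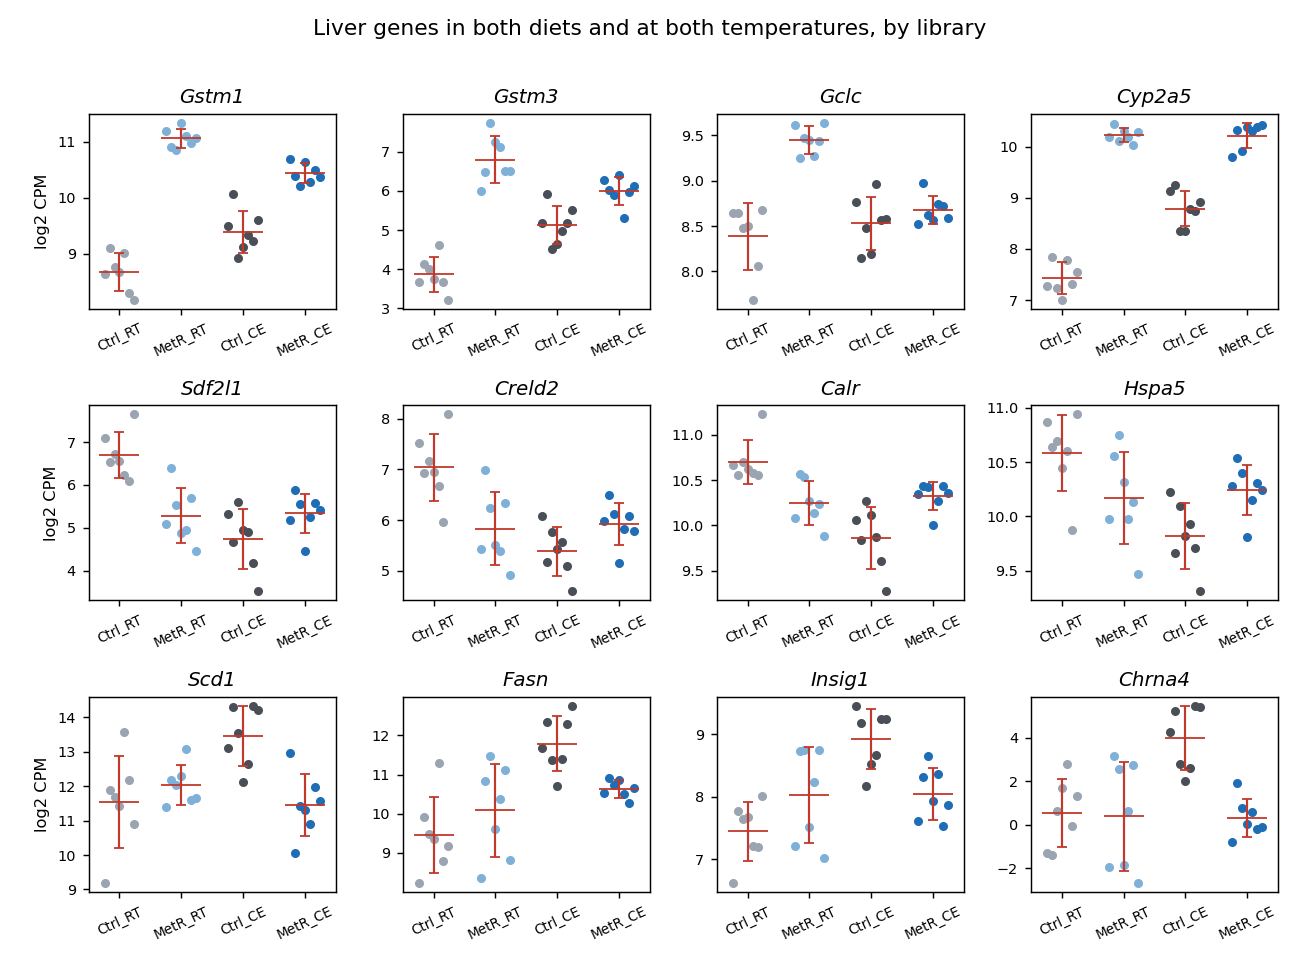
Levels of 12 genes in log2 CPM (vertical axis) in the libraries of all 4 groups, with points for libraries (7 per group), a line for the mean and a bar for the SD; rows hold NRF2 targets with Cyp2a5, ER chaperones, and lipid genes with Chrna4. The MetR_RT points of Gstm1 lie above those of MetR_CE, and the Ctrl_RT points of Sdf2l1 at 68.3 to 201 CPM above the Ctrl_CE points at 11.3 to 48.6 CPM.

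**Figure D5:**
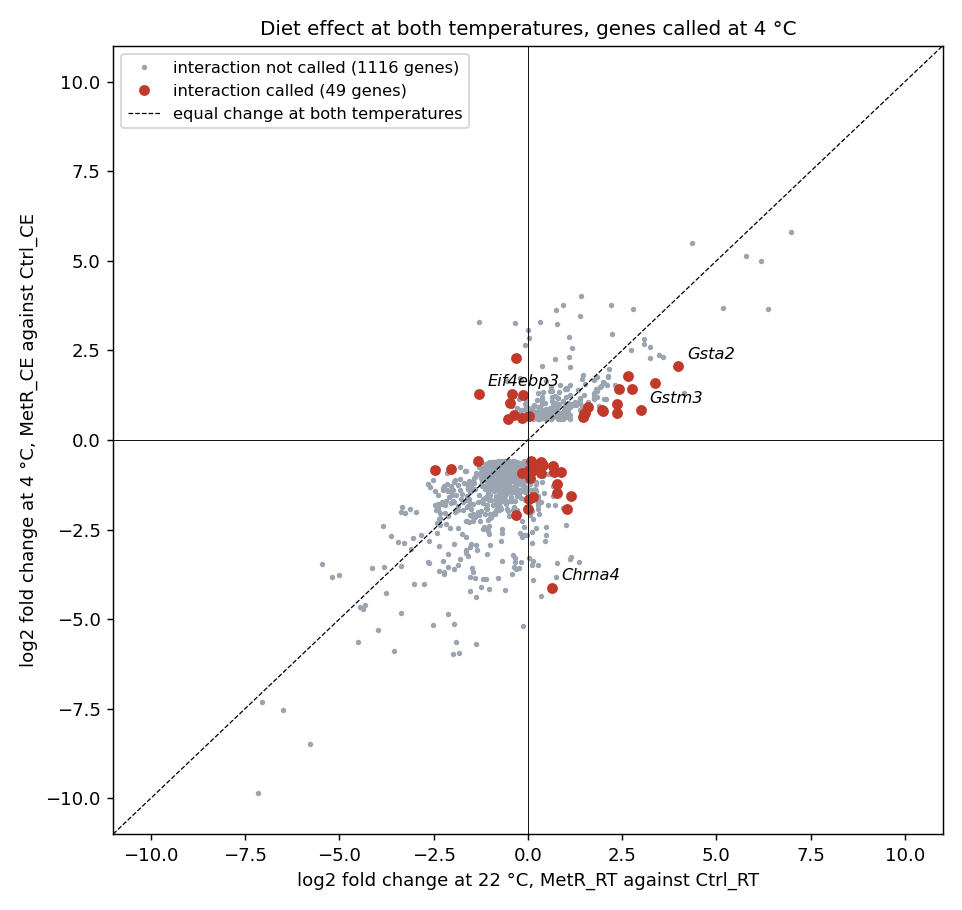
The log2FC of the diet at 4 °C (vertical axis) against that at 22 °C (horizontal axis) for the 1165 genes called at 4 °C, with the 49 genes called in the interaction in red and the line of equal change dashed. Most points lie in the lower left and upper right, and Eif4ebp3 in the upper left.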

How the data were processed

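The counts per gene are those the authors deposited for polyA RNA of whole liver, not normalised, in 28 columns, each matched to 1 library. The submitters' processing notes name STAR 2.7.9a, featureCounts 2.0.3, Salmon 1.9.0 and mm10, and which counter made the table was not settled. The library kit does not mark strand, so reads of overlapping genes cannot be told apart. Named genes with such a partner include Cox6a2, Vldlr, Psph, Slc3a1, Tm7sf2, Ugp2, Pltp, Atf5, Cxcl10, Alas2, Igf1, Acss2, Hspa5, C8a and Acaa1b.

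Genes with at least 10 counts in total were fitted with edgeR 4.0.16 (TMM, quasi-likelihood test, 1 mean per group over all 28 libraries, R 4.3.3), with Benjamini-Hochberg adjustment over 22143 genes. Calls needed an adjusted p under 0.05 and 1.5-fold. The interaction contrast tested the difference of diet effects. DESeq2 1.42.0, apeglm 1.24.0, glmTreat, other filters and size factors, the replicate block and left-out libraries were alternatives. A gene with 0 counts in a group got a bound from 3 counts over the group. Levels are CPM, with a prior count of 2 on the log2 scale. The fit was tested on simulated data. Genes were named by p and size of change among called genes with a symbol and a mean of at least 1 CPM, by place in the gene lists, and as key genes. The comparison, members and lists were chosen with earlier results of these data known. Each library is 1 mouse. Some list members are not reported here.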

Additional observations from a re-analysis of the deposited data

Results flagged for a closer look

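Among 312 groups of 7 libraries, up to 2 for each named gene, 30 had a highest or lowest library apart from the other 6 by Dixon's criterion. Chance alone gives about 1 in 20 where values follow a normal distribution, which low counts do not. Ctrl_CE replicate 4 stood apart in Gsta2 at 0.838 CPM, Acod1 at 35.2 CPM, Chil3 at 25.7 CPM, Slc7a11 at 0.0932 CPM, Tat at 5200 CPM, Ntrk2 at 0 CPM, Acaa1b at 401 CPM, Ugp2 at 349 CPM, Cxcl10 at 15 CPM, Jun at 36.6 CPM, Col1a1 at 3.73 CPM and Col3a1 at 13.8 CPM. MetR_CE replicate 1 stood apart in Cyp2a4 at 7.88 CPM, C9 at 76.2 CPM, Slc3a1 at 66.6 CPM, C6 at 24 CPM, Cyp4a12b at 2.68 CPM, Mup20 at 147 CPM, Hamp at 377 CPM, C8a at 137 CPM, C8b at 93.8 CPM and Alas2 at 15.3 CPM. Ctrl_CE replicate 2 stood apart in Scd2 at 15 CPM and Hamp at 147 CPM. MetR_CE replicate 4 stood apart in Calr at 1030 CPM and Dnah11 at 0.966 CPM. Ctrl_CE replicate 3 stood apart in Krt23 at 5.48 CPM. MetR_CE replicate 2 stood apart in Prtn3 at 0.077 CPM. There, as in Slc7a11 in Ctrl_CE, 1 count in 1 library stood against 0 in the others, which always meets the criterion. Ctrl_CE replicate 1 stood apart in Rpl12 at 103 CPM. MetR_CE replicate 5 stood apart in Lpar1 at 0.384 CPM. 

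The diet effect at 4 °C differed from that at 22 °C for 31 named genes, by the interaction term of edgeR's quasi-likelihood test with Benjamini-Hochberg adjustment. The log2 difference, 4 °C minus 22 °C, was above 0 for Eif4ebp3 (2.60), Bhmt (1.23), Sdf2l1 (1.91), Creld2 (1.69), Derl3 (3.20) and Calr (0.89). It was below 0 for Gsta2 (-1.92), Ces1b (-0.85), Chrna4 (-4.76), Cyp2a5 (-1.36), Gstm2 (-1.01), Gstm1 (-1.37), Gstm3 (-2.17), Vldlr (-1.79), Pir (-0.78), Htatip2 (-1.13), Fuca2 (-0.67), Anxa3 (-0.91), Slc3a2 (-0.78), Fst (-1.66), Gpam (-1.38), Insig1 (-1.59), Gstm4 (-0.99), Gclc (-0.90), Aox1 (-0.81), Nqo1 (-1.18), Ugt1a5 (-2.25), Cyp2c29 (-1.12), Lpar1 (-1.78), Slc40a1 (-0.73) and Cyp2c55 (-1.78). Causes of these differences were not tested.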

How the results depend on the processing

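Requiring a change beyond 1.5-fold in the test itself (glmTreat) left 157 genes in the cold (36 higher and 121 lower), 319 at 22 °C (124 and 195) and 0 in the interaction (0 higher and 0 lower), where 869 had an unadjusted p under 0.05, edgeR's quasi-likelihood test called 234 and DESeq2 411 (145 higher and 266 lower). With filterByExpr the interaction gave 129 higher genes. Without Ctrl_CE replicates 2 and 4, chosen after seeing the data, 600 genes were lower in the cold, and the interaction gave 374 (161 higher). In that setting Mt2 (1.12), Mt1 (0.63) and Gclc (-0.004) changed sign, none of them called. Leaving out 1 library at a time gave 943 to 1291 genes in the cold (216 to 270 higher and 720 to 1033 lower), 1496 to 1651 at 22 °C (613 to 652 and 871 to 999) and 127 to 401 in the interaction (39 to 151 and 88 to 250).

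Of 138 genes named here and called in the cold, 117 kept that call and direction under each planned setting other than glmTreat and leaving out libraries. In all 14 cases of 1 library left out, 109 of the 138 kept them. Interaction calls of single genes were not followed over the settings. Samples of the same replicate number did not deviate together (correlations -0.115 to 0.0292), and no replicate correlated best with its own number. With the number as a replicate block the counts were 1059 in the cold (243 higher) and 175 in the interaction (60 higher). On simulated counts for the cold comparison, 48.0% of genes changed by 1.5-fold and 94.0% of those changed by 2-fold were called. The changed genes were drawn among those with a mean of at least 1 CPM. Their spread followed the trend over expression level, and no library was made to stand apart. Genes with fewer counts or a wider spread, or groups with such a library, may be called less often. The call itself needs a fitted change of 1.5-fold, so the first share is set by that limit and says little about depth. The causes of these shifts were not tested.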

Other observations

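Solute carriers gave 7 higher and 22 lower of 300 members, 8 higher and 14 lower without Ctrl_CE replicates 2 and 4, and 4 higher without MetR_CE replicate 1. Slc13a5, the citrate importer of hepatocytes, had 0.457 to 6.71 CPM (median 1.79) in Ctrl_CE and 0.0644 to 0.231 CPM (median 0.217) in MetR_CE, without overlap (log2FC -3.58 ± 0.61, adjusted p = 0.000159). Of 8 mesothelium and cilia markers 1 was higher, Dnah11, a motor of cilia that shares its span with Cdca7l, at 0 to 0.652 CPM (median 0.171) in Ctrl_CE and 0.966 to 1.93 CPM (median 1.54) in MetR_CE, without overlap (log2FC 2.67 ± 0.44, adjusted p = 0.000124). Serpin A genes, whose copies may share reads, gave 5 lower and 0 higher of 22, and 2 lower without Ctrl_CE replicate 4 or MetR_CE replicate 2, and 3 without Ctrl_CE replicate 3 or MetR_CE replicate 1, 4 or 5. The collagen family gave 1 higher and 5 lower of 37, and 8 lower without Ctrl_CE replicate 4, and nuclear respiratory chain subunits 1 higher and 0 lower of 77 (Atp5s). Rps6, a protein of the small ribosomal subunit, had 56.9 to 70.3 CPM (median 61.4) in Ctrl_CE and 82.1 to 102 CPM (median 95.6) in MetR_CE, without overlap (log2FC 0.59 ± 0.06, adjusted p = 4.76e-07), with the change at the 1.5-fold limit and the call lost when any of 8 of the 14 libraries was left out. H2-Ab1, an MHC class II chain, had 13.6 to 30.4 CPM (median 22.6) in Ctrl_CE and 8.63 to 15.8 CPM (median 12.1) in MetR_CE (log2FC -0.81 ± 0.21, adjusted p = 0.00763), and -0.63, uncalled, without Ctrl_CE replicates 2 and 4. Cxcl9, an interferon-induced chemokine, had 2.57 to 15.1 CPM (median 5.22) in Ctrl_CE and 1.64 to 3.74 CPM (median 3.02) in MetR_CE (log2FC -1.20 ± 0.40, adjusted p = 0.0443), with the call lost when any of 9 of the 14 libraries was left out.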
